A study of Sus scrofa with 40 samples.

Results

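The genes of the antioxidant, glutathione and thioredoxin systems were followed through RNA sequencing of pig (Sus scrofa) oocytes, from mtDNA-deficient and mtDNA-normal oocytes sequenced as pools and one by one. A list of 38 genes was matched by symbol to the 38794 gene rows of the 2 count tables, and 36 of the 38 had a row in both. GSR (glutathione reductase) and GLRX2 (a mitochondrial and nuclear glutaredoxin) had no row under their symbols. All were mature oocytes halted in metaphase II of meiosis, as they are until fertilisation, from hybrid animals of Large White, Duroc and Berkshire descent. The groups were 5 deficient pools, 6 normal pools, 14 deficient single oocytes and 15 normal single oocytes. How the mtDNA state of an oocyte was determined is not described in the labels used here, the titles carry only the words BCBpos and BCBneg or pos and neg, and no agent, genotype or age is given for any group. Pools were extracted with a column kit and amplified by a single-primer method (SPIA), and single oocytes were extracted in the tube and prepared with a kit (SoLo) that uses pig-specific primers to deplete unwanted transcripts, so library type stands for kit, extraction and number of oocytes at once.

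A cell turns the superoxide that leaks from its respiratory chain into hydrogen peroxide through superoxide dismutases, and removes the peroxide through catalase, glutathione peroxidases and peroxiredoxins. Glutathione peroxidases draw on glutathione, which is made by glutamate-cysteine ligase and glutathione synthase. Peroxiredoxins draw on thioredoxin, which thioredoxin reductases restore. The transcription factor NRF2, encoded by NFE2L2 and held in check by KEAP1, switches on many of these genes. The oocyte is known for its large store of glutathione, built up during maturation, and for its large number of mitochondria.

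Libraries of pools held 14480546 to 29538982 counts and 14207 to 19245 genes with a count, and libraries of single oocytes held 706929 to 3067523 counts. Levels are given as CPM (counts per 1e6) of all gene counts of a library. They are not corrected for transcript length, so they are compared between samples and not between genes. In single oocytes 1 row, LOC102158401, took 58.5% of the counts of deficient oocytes and 64.2% of those of normal oocytes, against 0.00958% in pools, which lowers the CPM of every other gene there. Within each state, single oocytes whose titles start with the same number, whose meaning is not stated, were added up into 4 deficient sums (numbers 1 to 4) and 3 normal sums (numbers 2 to 4). All 11 oocyte markers examined were counted at 10 CPM or more in pools on average. In the sums of single oocytes 10 of them were, and DAZL averaged 7.29 CPM there, against 95.7 CPM in pools. The 15 cumulus and granulosa markers with a row summed to 61.4 to 193 CPM in deficient pools and 107 to 167 CPM in normal pools, and LHCGR, AREG, INHA, AMH and FOXL2 were at 0 in all pools. In the sums of single oocytes they came to 24.99 to 36.5 CPM in deficient sums and 18.0 to 28.2 CPM in normal sums, with TNFAIP6, AREG and AMH at 0 in all sums. Most of these totals was INHBA, at 50.3 CPM in pools and 14.6 CPM in sums, and VCAN, at 66.0 and 4.40 CPM. Other markers went the other way, among them CYP11A1 (0.104 and 2.41 CPM), STAR (1.41 and 2.47 CPM) and PTGS2 (1.30 and 2.54 CPM). The 4 theca and stroma markers with a row summed to 3.53 to 7.27 CPM in deficient pools and 6.62 to 12.3 CPM in normal pools, and to 11.1 to 33.9 CPM in deficient sums and 6.14 to 27.8 CPM in normal sums. Of these, COL1A2 averaged 5.14 CPM in pools and 18.3 CPM in sums, and DCN went the other way, at 2.17 and 0.587 CPM. LUM was at 0 in every library, and COL3A1 in all deficient pools. The 3 blood markers with a row came to no more than 4.00 CPM in any pool. Their part in the results below was not tested. A value in CPM also cannot tell fewer cells of a type apart from less RNA per cell.

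Summed over the 36 genes, the 5 deficient pools averaged 1054 ± 127 CPM (SD) and the 6 normal pools 1172 ± 175 CPM (SD), and the ranges of 872 to 1169 CPM and 832 to 1284 CPM overlapped. In single oocytes the sum was 559 ± 105 CPM in deficient sums (SD, n = 4) and 484 ± 72.0 CPM in normal sums (SD, n = 3). With LOC102158401 and the ribosomal RNA row RN18S left out of the totals, the 2 states came to 1567 and 1529 CPM. Of the 36 genes, 21 were counted in every pool and 15 in every single oocyte. An average of at least 10 CPM was reached by 13 genes in pools and by 14 in the sums, 10 of them in both.

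The comparison of mtDNA state asks which transcripts differ between deficient and normal oocytes. Of the 36 genes, none of those tested was called in pools or in single oocytes, and the others had too few counts to be tested. In pools, 25 genes passed the expression filter and 0 of them were called at an adjusted p under 0.05, as were 0 of all 13540 genes tested (0%, edgeR's quasi-likelihood test with Benjamini-Hochberg adjustment). At an unadjusted p under 0.05 there were 3, PRDX1, PRDX2 and GCLM, which is 3 of 25 beside 5.36% of all genes tested. With a pool's count of detected genes as a covariate, chosen after the data were seen, there were 2 others, SOD1 and TXN, in place of these. With 1 pool left out that number ran from 1, without deficient pool A3, to 5, without deficient pool B2. The median log2 difference of the 25 was -0.09, with 11 above 0 and 14 below, beside a median of 0.00 over all genes tested. Pools whose titles begin with A and those with B, letters whose meaning is not stated, gave opposite signs for 8 of the 24 members tested in each, SOD2, CAT, GPX8, PRDX3, TXN2, TXNRD1, GLRX3 and GLRX5, beside 41.3% of all genes. For 0 of the 25 were the CPM of the 2 states apart without overlap, beside 0.598% of all genes. In the sums of single oocytes 22 genes were tested and 0 were called, as were 0 of 11964 genes in all (0%), and 0 reached an unadjusted p under 0.05 beside 1.93% of all genes. Their median log2 difference was 0.03, with 12 above 0 and 10 below. DESeq2 and limma-voom also called 0 of the 36 genes in either table, though DESeq2 called 28 of all genes in pools and 2 in single oocytes. With the shared title number of the sums as a replicate block, 2 of all genes were called and none of the 36.

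**Figure D1:**
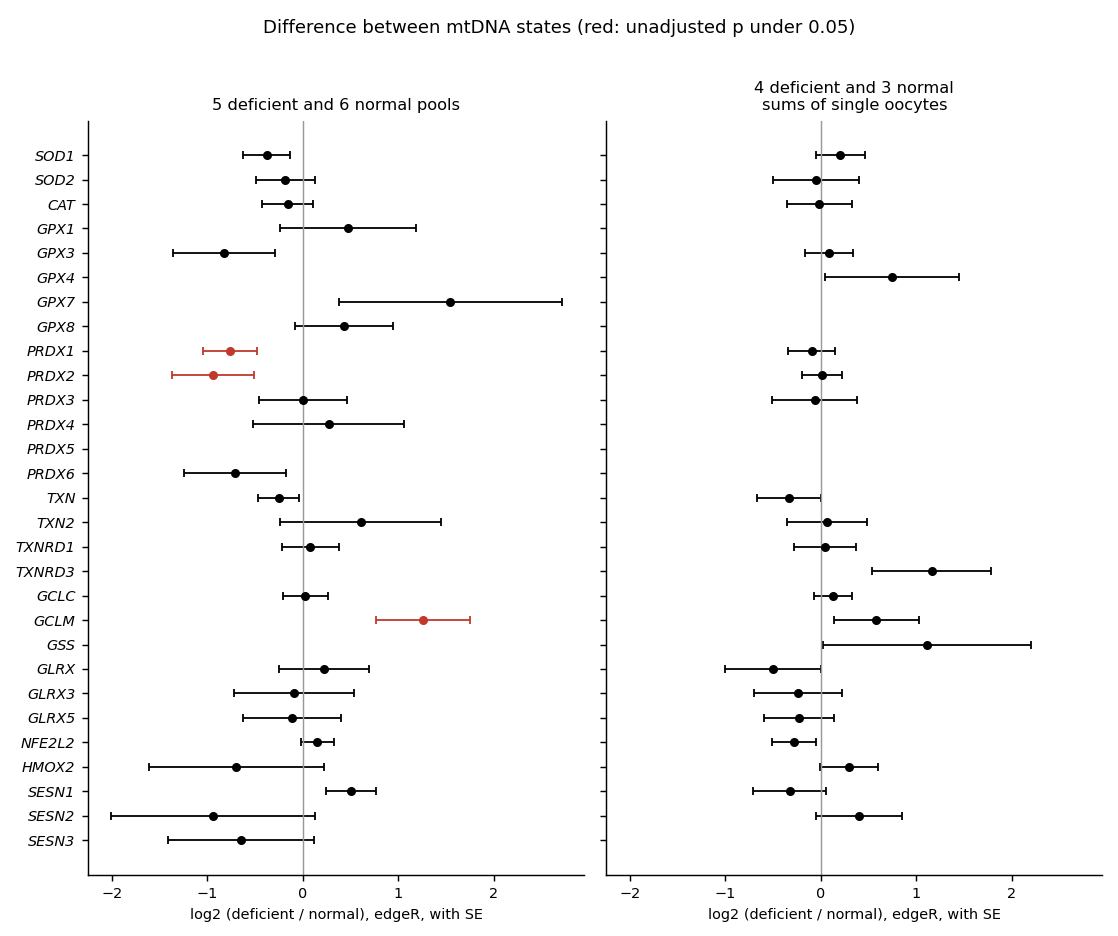
Log2 difference between mtDNA-deficient and mtDNA-normal samples, with its standard error, for each gene tested in pools (left, 25 genes) and in sums of single oocytes (right, 22 genes), from edgeR with TMM scaling. Points in red, PRDX1, PRDX2 and GCLM in pools, have an unadjusted p under 0.05, and no point passed after adjustment. A gene without a point in a panel did not pass the expression filter there.

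The superoxide dismutases and catalase form the first line of the system. SOD1, the copper and zinc dismutase of the cytosol, had 75.5, 123, 87.8, 85.7 and 104 CPM in deficient pools, against 149, 142, 145, 160.5, 105 and 125 CPM in normal pools, with pools in the order A1, A2, A3, B2 and B4 for deficient and A2, A3, A4, B1, B2 and B4 for normal here and below. Of the deficient pools only A2 lay inside the range of the normal pools. The log2 difference was -0.38 (SE 0.242, unadjusted p = 0.137, adjusted p = 0.921). With the number of genes detected in the model it was -0.71 (SE 0.177, unadjusted p = 0.00100, adjusted p = 0.321). In the sums of single oocytes SOD1 had 84.6, 59.2, 34.7 and 70.4 CPM when deficient, against 48.4, 31.2 and 64.6 CPM when normal, in the order 1 to 4 for deficient and 2 to 4 for normal here and below. It ranged over 19.3 to 99.5 CPM (median 68.4) in deficient oocytes, against 23.1 to 106 CPM (median 50.9) in normal oocytes, and the number 3 sum was the lowest in both states. The log2 difference between the sums was 0.20 (SE 0.258, adjusted p = 1.00), so the tables stood on opposite sides of 0 without a call in either.

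SOD2 is the manganese dismutase of the mitochondrial matrix. It had 13.2, 5.66, 5.29, 14.9 and 15.9 CPM in deficient pools, against 13.1, 9.21, 15.5, 16.4, 10.4 and 14.9 CPM in normal pools. The deficient pools A2 and A3 lay below every normal pool and the other 3 lay among them, for a log2 difference of -0.18 (SE 0.313, adjusted p = 0.954). Its sums had 19.9, 10.1, 5.61 and 13.5 CPM when deficient, against 17.6, 4.39 and 11.9 CPM when normal. Single oocytes ranged over 2.19 to 29.4 CPM (median 11.1) in deficient oocytes, against 0 to 25.1 CPM (median 8.03) in normal oocytes, and the sums of the 2 states overlapped, with a log2 difference of -0.05 (SE 0.45). SOD3, the secreted dismutase, had 0 of 258149370 counts in pools and 0 of 41186495 counts in single oocytes, which allows up to 0.0116 CPM and 0.0728 CPM over all libraries (3 counts, counting error only).

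CAT encodes catalase, the peroxisomal enzyme that splits hydrogen peroxide into water and oxygen. It had 73.8, 49.1, 68.2, 46.1 and 103 CPM in deficient pools, against 116, 66.1, 124, 45.3, 72.95 and 78.1 CPM in normal pools. The 2 ranges overlapped almost throughout, with a log2 difference of -0.16 (SE 0.265). In the sums CAT had 28.6, 10.5, 39.98 and 41.3 CPM when deficient, against 18.7, 26.9 and 32.1 CPM when normal. Deficient sum 2 was the lowest of the 7, and the log2 difference was -0.02 (SE 0.337). Among single oocytes it ranged over 10.16 to 65.8 CPM (median 33.8) in deficient oocytes, against 7.62 to 60.8 CPM (median 25.5) in normal oocytes.

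**Figure D2:**
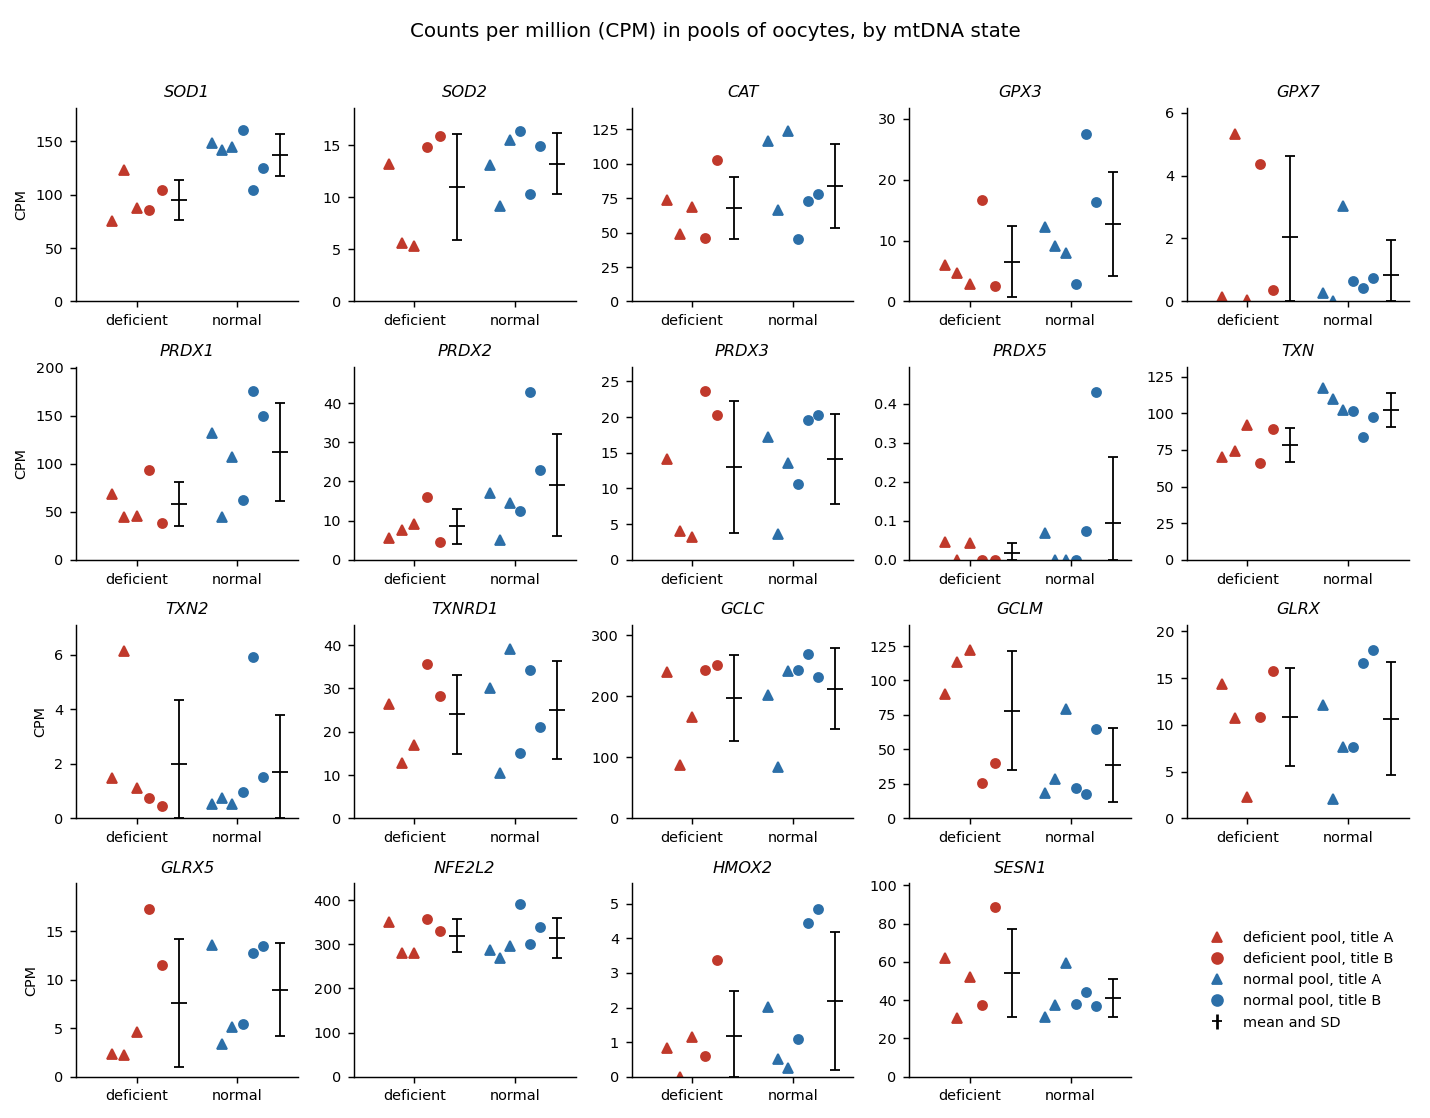
CPM in each pool for the members whose values are given library by library, deficient pools on the left and normal pools on the right of each panel; triangles are pools whose titles begin with A and circles those with B, and the bar is the mean with its SD, cut off at 0. SOD1 lay at 75.5 to 123 CPM in deficient pools and 105 to 160.5 CPM in normal pools, and the deficient A pools of GCLM stood at 90.3 to 122 CPM.

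Glutathione peroxidases reduce peroxides at the cost of glutathione, and several carry selenocysteine at the active site. GPX3, the secreted form found in plasma, had 5.91, 4.70, 2.82, 16.6 and 2.55 CPM in deficient pools, against 12.2, 9.17, 7.92, 2.88, 27.6 and 16.3 CPM in normal pools. Both states included 1 or more pools above 16 CPM, and the log2 difference was -0.82 (SE 0.53, unadjusted p = 0.14, adjusted p = 0.921). In the sums of single oocytes it had 50.2, 22.97, 37.4 and 39.9 CPM when deficient, against 37.2, 20.4 and 36.02 CPM when normal. Every oocyte was counted for GPX3, over 16.3 to 60.7 CPM (median 37.1) in deficient oocytes, against 10.1 to 58.6 CPM (median 31.5) in normal oocytes, and the log2 difference of the sums was 0.09 (SE 0.251).

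GPX7, a peroxidase of the endoplasmic reticulum, had 0.14, 5.32, 0.0441, 4.38 and 0.352 CPM in deficient pools, against 0.277, 0, 3.02, 0.643, 0.436 and 0.735 CPM in normal pools. Deficient pools A2 and B2 and normal pool A4 held most of its counts. In single oocytes 1 of 14 deficient and 3 of 15 normal oocytes had a count, and the sums had 0, 0, 0 and 0.123 CPM when deficient, against 1.49, 0.501 and 0 CPM when normal. GPX7 did not pass the filter of the single-oocyte fit, so its state effects in the 2 library types are not compared.

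The remaining peroxidases were sparse. GPX1, the main cytosolic form, ranged from 2.46 to 13.1 CPM in deficient pools and from 0.258 to 10.8 CPM in normal pools, and had a count in 8 of 14 deficient and 6 of 15 normal oocytes. Its log2 difference in pools was 0.48 (SE 0.711). GPX4, which reduces lipid peroxides within membranes, had 14 counts in 4 of 11 pools, at 0 to 0.372 CPM in deficient pools and 0 to 0.122 CPM in normal pools. In the sums GPX4 had 2.79, 2.02, 4.76 and 4.53 CPM when deficient, against 1.061, 1.13 and 3.51 CPM when normal, with a log2 difference of 0.75 (SE 0.702) and a count in 20 of 29 oocytes. GPX4 passed the filter of the single-oocyte fit through its deficient sums, so this difference is not read as a result. GPX8, a membrane peroxidase of the endoplasmic reticulum, lay at 1.24 to 5.90 CPM in deficient pools and 1.56 to 2.54 CPM in normal pools. GPX2, the form known from the gut, had a count in 1 of 11 pools and in 9 of 29 oocytes.

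The peroxiredoxins held 2 of the 3 members with an unadjusted p under 0.05 in pools. PRDX1, an abundant cytosolic peroxiredoxin, had 68.9, 44.1, 45.7, 93.4 and 38.2 CPM in deficient pools, against 132, 44.4, 107, 61.99, 176 and 149.6 CPM in normal pools. Deficient pools averaged 58.1 ± 22.9 CPM (SD, n = 5) and normal pools 112 ± 51.01 CPM (SD, n = 6), and 4 of the 6 normal pools stood above every deficient pool. The log2 difference was -0.77 (SE 0.284, unadjusted p = 0.0161, adjusted p = 0.901). Within pools titled A it was -0.64 (SE 0.317) and within pools titled B -0.87 (SE 0.477). The number of genes detected was lower in the deficient pools (median 16184) than in the normal pools (median 18270), and with that number in the model the difference of PRDX1 was -0.42 (SE 0.242, unadjusted p = 0.0989). Without the 2 pools of fewest genes, deficient A2 and normal A3, it was -0.87 (SE 0.285). In the sums of single oocytes PRDX1 had 42.8, 24.6, 36.9 and 48.1 CPM when deficient, against 43.3, 31.7 and 29.1 CPM when normal. These overlapped, with a log2 difference of -0.10 (SE 0.249, adjusted p = 1.00).

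PRDX2, another cytosolic peroxiredoxin, had 5.59, 7.53, 9.13, 16.02 and 4.53 CPM in deficient pools, against 16.9, 5.00, 14.4, 12.4, 42.9 and 22.96 CPM in normal pools. Its normal pools A3, at 5.00 CPM, and B2, at 42.9 CPM, lay far apart. The log2 difference was -0.94 (SE 0.43, unadjusted p = 0.0442, adjusted p = 0.921), and it was -0.45 (SE 0.449) with the number of genes detected in the model. The sums of PRDX2 had 68.3, 48.8, 58.5 and 105 CPM when deficient, against 58.6, 47.3 and 74.8 CPM when normal. Single oocytes ranged over 35.2 to 129 CPM (median 79.8) in deficient oocytes, against 34.9 to 99.7 CPM (median 59.9) in normal oocytes, and the highest 5 of all 29 were deficient oocytes with title number 4. With TMM scaling the log2 difference of the sums was 0.01 (SE 0.206). LOC102158401 took a larger share of the counts in normal oocytes, and its part in the CPM of PRDX2 was not tested.

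PRDX3, the peroxiredoxin of mitochondria, had 14.1, 4.01, 3.18, 23.6 and 20.2 CPM in deficient pools, against 17.2, 3.58, 13.6, 10.6, 19.6 and 20.3 CPM in normal pools. Deficient A2 and A3 and normal A3 were the 3 low pools, and the log2 difference was 0.00 (SE 0.459). The sums of PRDX3 had 10.8, 3.63, 8.34 and 7.35 CPM when deficient, against 7.01, 6.89 and 6.15 CPM when normal, again without separation, and the log2 difference was -0.07 (SE 0.444). Each of the 29 oocytes had a count for PRDX3, at 1.21 to 13.9 CPM (median 6.40) in deficient oocytes, against 0.918 to 10.8 CPM (median 6.49) in normal oocytes.

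PRDX5, which works in mitochondria, peroxisomes and the cytosol, was close to absent in pools, with 0.0465, 0, 0.0441, 0 and 0 CPM in deficient pools, against 0.0693, 0, 0, 0, 0.0727 and 0.429 CPM in normal pools. In single oocytes 12 of 14 deficient oocytes held a count, 39 in all, against 5 of 15 normal oocytes with 7 in all. On 17 September, the earlier of 2 dates carried by the column names, these were 6 of 8 deficient and 2 of 9 normal oocytes, and on 22 September 6 of 6 deficient and 3 of 6 normal oocytes. The sums had 1.39, 4.43, 1.02 and 2.21 CPM when deficient, against 0.637, 0.251 and 0.22 CPM when normal, and each deficient sum was above each normal one. Sums did not overlap for 3.73% of the genes tested in single oocytes, of which PRDX5 was not one. That share does not say how often genes of so few counts separate. At this depth PRDX5 did not pass the expression filter of the single-oocyte fit. Without that filter its log2 difference was 2.46 (SE 1.29, unadjusted p = 0.0564, adjusted p = 0.870). The share of oocytes with a count was noticed in the values, and was not put to a test of its own.

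PRDX4, the peroxiredoxin of the endoplasmic reticulum, ranged from 0 to 5.86 CPM in deficient pools and from 0.504 to 3.73 CPM in normal pools, with a log2 difference of 0.27 (SE 0.791). PRDX6, which also acts on phospholipids, lay at 0.750 to 3.05 CPM in deficient pools and 1.19 to 4.50 CPM in normal pools, with a log2 difference of -0.71 (SE 0.531). Neither passed the filter in single oocytes, where PRDX4 had a count in 6 deficient and 6 normal oocytes and PRDX6 in 3 deficient and 6 normal oocytes. SRXN1, sulfiredoxin, which restores overoxidised peroxiredoxins, had 0 counts in all 40 libraries.

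The thioredoxin genes were counted in every pool for TXN, TXN2 and TXNRD1. TXN, the cytosolic thioredoxin, had 69.96, 73.96, 92.2, 66.2 and 89.3 CPM in deficient pools, against 117, 110.0, 102, 102, 83.6 and 97.3 CPM in normal pools. Deficient pools averaged 78.3 ± 11.7 CPM (SD, n = 5) and normal pools 102 ± 11.5 CPM (SD, n = 6). Only normal pool B2 lay within the deficient range, but the log2 difference of the fit was -0.25 (SE 0.216, unadjusted p = 0.263, adjusted p = 0.922). With the number of genes detected in the model it was -0.48 (SE 0.175, unadjusted p = 0.0136, adjusted p = 0.659). In the sums TXN had 25.4, 45.1, 29.4 and 20.2 CPM when deficient, against 40.1, 28.2 and 35.1 CPM when normal. The deficient sums bracketed the normal ones, with a log2 difference of -0.33 (SE 0.333), and among single oocytes the gene ranged over 1.21 to 66.7 CPM (median 26.4) in deficient oocytes, against 16.5 to 67.7 CPM (median 32.95) in normal oocytes.

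TXN2, the thioredoxin of mitochondria, had 1.49, 6.15, 1.10, 0.742 and 0.44 CPM in deficient pools, against 0.52, 0.733, 0.516, 0.982, 5.93 and 1.53 CPM in normal pools. In each state 1 pool, deficient A2 and normal B2, stood several times above the rest. The log2 difference was 0.61 (SE 0.845). It was 2.50 (SE 1.06, unadjusted p = 0.0393) within pools titled A and -2.13 (SE 1.08, unadjusted p = 0.0737) within pools titled B, and -0.79 (SE 0.817) without the 2 pools of fewest genes. In the sums it had 19.5, 5.24, 9.53 and 14.7 CPM when deficient, against 5.31, 9.90 and 14.3 CPM when normal, with number 2 the lowest in both states and a log2 difference of 0.07 (SE 0.422). Every deficient oocyte and 14 of 15 normal oocytes had a count, over 3.65 to 27.8 CPM (median 11.7) in deficient oocytes, against 0 to 20.5 CPM (median 9.50) in normal oocytes.

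TXNRD1, the cytosolic selenium-containing reductase that restores thioredoxin, had 26.5, 12.8, 16.9, 35.6 and 28.2 CPM in deficient pools, against 30.01, 10.4, 39.2, 15.2, 34.4 and 21.2 CPM in normal pools. The states overlapped almost fully, with a log2 difference of 0.08 (SE 0.299). The sums had 24.03, 29.4, 16.7 and 23.9 CPM when deficient, against 28.2, 12.3 and 21.5 CPM when normal, with a log2 difference of 0.04 (SE 0.323). By date, single oocytes of 22 September had a mean of 27.7 CPM when deficient and 27.5 CPM when normal, and those of 17 September 19.7 CPM when deficient and 17.02 CPM when normal. TXNRD2, the mitochondrial reductase, had 0 counts in all pools and in all but 1 single oocyte, a deficient one, where it had 9.

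TXNRD3, a reductase of thioredoxin and glutathione known from the testis, passed the filter of the single-oocyte fit through its deficient sums, where it is high. Its sums had 6.62, 4.03, 2.89 and 5.88 CPM when deficient, against 1.70, 1.63 and 2.20 CPM when normal. These did not overlap, beside non-overlapping sums for 3.73% of all genes tested. Since the filter favoured such a pattern, neither this separation nor the fit is read as support for a difference. The log2 difference was 1.16 (SE 0.624, unadjusted p = 0.0802, adjusted p = 1.00). A count was present in 11 of 14 deficient oocytes, 94 in all, and in 10 of 15 normal oocytes, 41 in all. In pools it was low, with 0.419, 0, 0.309, 1.56 and 0.22 CPM in deficient pools, against 0.416, 0.275, 0.0737, 0.102, 0.4 and 0.735 CPM in normal pools, and was not tested there.

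Glutathione is built in 2 steps, of which glutamate-cysteine ligase takes the slower. GCLC, the catalytic subunit of that ligase, had 239, 87.6, 166, 243 and 251 CPM in deficient pools, against 202, 84.7, 242, 243, 270.0 and 232 CPM in normal pools. The lowest pool of each state, deficient A2 and normal A3, was also the one with the fewest genes detected of its state, and the log2 difference was 0.03 (SE 0.237). In the sums GCLC had 80.5, 70.9, 84.6 and 112 CPM when deficient, against 67.5, 66.2 and 72.4 CPM when normal. Single oocytes ranged over 37.4 to 205 CPM (median 89.8) in deficient oocytes, against 38.5 to 97.1 CPM (median 64.7) in normal oocytes, and the log2 difference of the sums was 0.13 (SE 0.2).

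GCLM, the modifier subunit that raises the activity of GCLC, had 90.3, 113, 122, 25.3 and 40.03 CPM in deficient pools, against 18.3, 28.7, 79.2, 22.2, 17.9 and 64.96 CPM in normal pools. Deficient pools averaged 78.2 ± 43.5 CPM (SD, n = 5) and normal pools 38.5 ± 26.6 CPM (SD, n = 6). The 3 deficient pools titled A stood above all normal pools and the 2 titled B among them. The log2 difference was 1.26 (SE 0.491, unadjusted p = 0.0208, adjusted p = 0.903). It was 1.56 (SE 0.475) within pools titled A and 0.01 (SE 0.545) within pools titled B. With the number of genes detected in the model it was 0.70 (SE 0.495, unadjusted p = 0.174). In the sums GCLM had 12.5, 6.85, 12.2 and 11.3 CPM when deficient, against 2.76, 5.64 and 10.4 CPM when normal, with a log2 difference of 0.58 (SE 0.443, unadjusted p = 0.206, adjusted p = 1.00). Single oocytes ranged over 0 to 27.1 CPM (median 8.18) in deficient oocytes, against 0 to 30.3 CPM (median 5.31) in normal oocytes. With each oocyte taken as a sample, the oocytes of 17 September alone gave a log2 difference of -0.08, with means of 10.001 CPM when deficient (n = 8) and 10.1 CPM when normal (n = 9). On 22 September the means were 10.9 CPM when deficient and 3.51 CPM when normal (n = 6 each).

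GSS, glutathione synthase, which completes the molecule, had a count in 2 of 5 deficient pools, at up to 1.33 CPM, against 5 of 6 normal pools, at up to 2.44 CPM, and was not tested there. In the sums it had 4.18, 2.42, 1.36 and 1.23 CPM when deficient, against 0, 0.125 and 2.75 CPM when normal, for a log2 difference of 1.11 (SE 1.09).

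**Figure D3:**
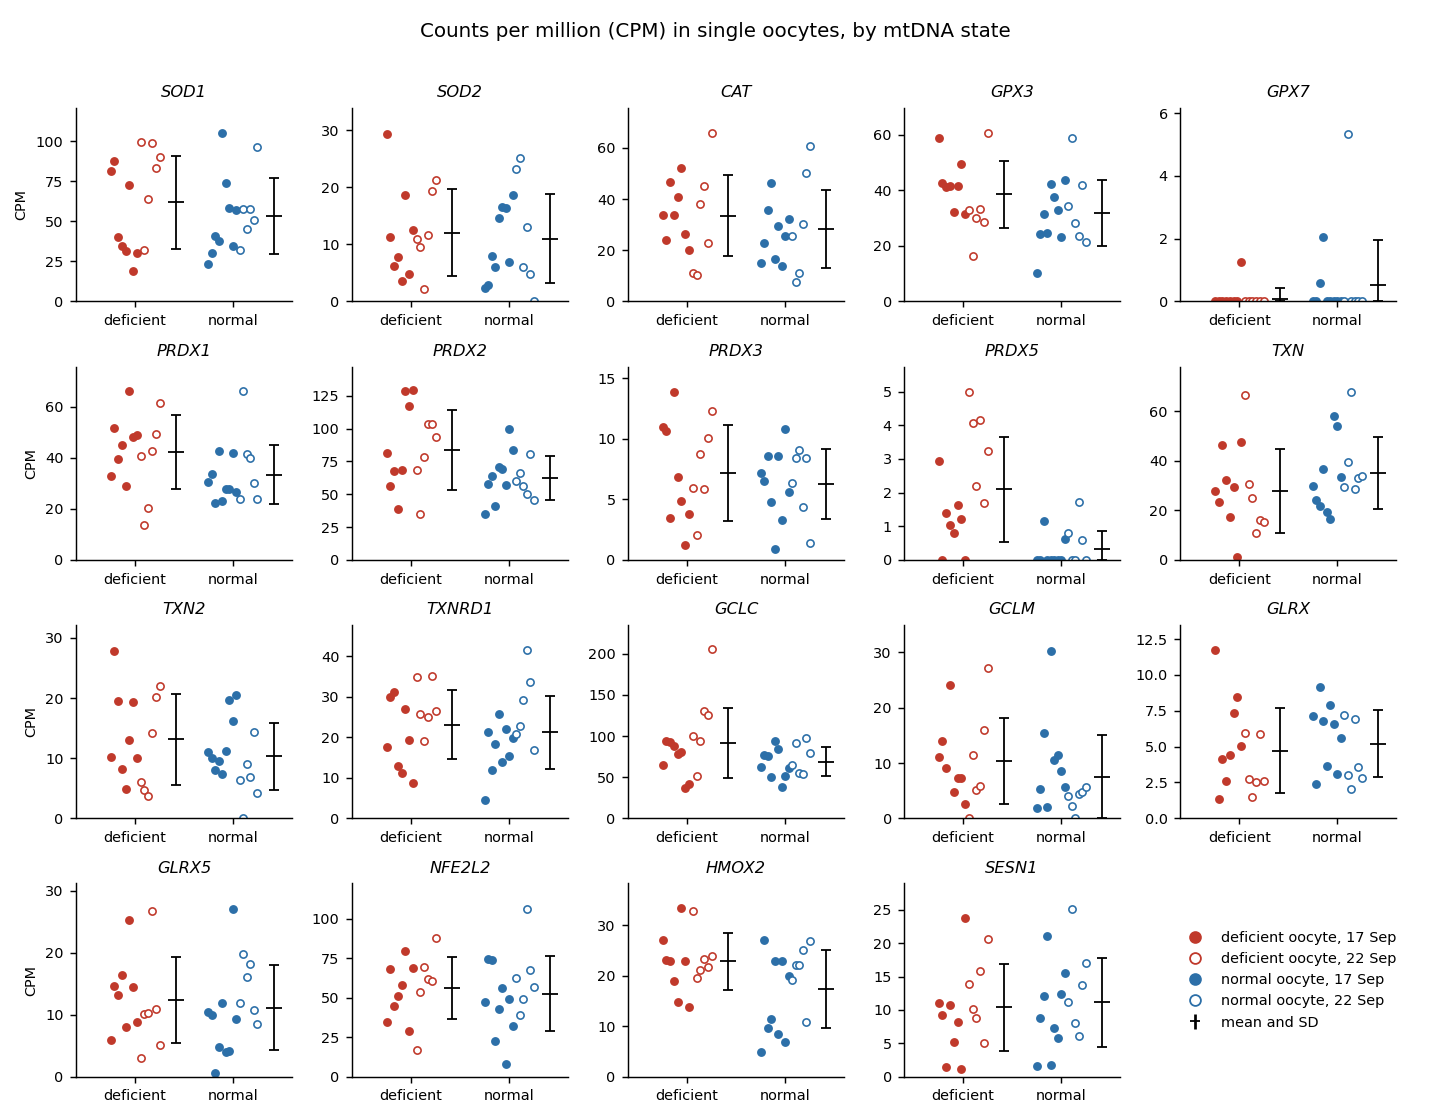
CPM in each single oocyte for the same members, deficient oocytes (n = 14) on the left and normal oocytes (n = 15) on the right of each panel; filled circles carry the date 17 September and open circles 22 September, and the bar is the mean with its SD, cut off at 0. PRDX5 had a count in 12 deficient and 5 normal oocytes, and the ranges of the 2 states overlapped for every member plotted.

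The glutaredoxins use glutathione to reduce protein disulfides or to handle iron-sulfur clusters. GLRX, the cytosolic form, had 14.4, 10.8, 2.25, 10.9 and 15.7 CPM in deficient pools, against 12.1, 2.06, 7.67, 7.62, 16.6 and 18.00 CPM in normal pools. The lowest pool in each state was A3, and the log2 difference was 0.22 (SE 0.471). In the sums GLRX had 6.27, 4.03, 3.74 and 4.41 CPM when deficient, against 4.88, 6.52 and 4.94 CPM when normal, with a log2 difference of -0.50 (SE 0.505). GLRX5, which serves iron-sulfur cluster assembly in mitochondria, had 2.33, 2.21, 4.63, 17.3 and 11.6 CPM in deficient pools, against 13.5, 3.35, 5.12, 5.42, 12.8 and 13.5 CPM in normal pools. Pools of both states spread widely, with a log2 difference of -0.11 (SE 0.509). Its sums had 10.4, 7.26, 12.1 and 14.3 CPM when deficient, against 16.6, 7.14 and 10.8 CPM when normal, with a log2 difference of -0.23 (SE 0.369). GLRX3, a cytosolic form with a role in iron handling, ranged over 0.618 to 10.7 CPM in deficient pools and 1.74 to 5.23 CPM in normal pools. In the sums GLRX3 had 10.8, 3.22, 4.59 and 14.3 CPM when deficient, against 9.13, 8.02 and 6.70 CPM when normal, overlapping between states.

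NFE2L2 encodes NRF2, the activator of many of the genes above. It had 349, 281, 279, 356 and 330.1 CPM in deficient pools, against 287, 268, 295, 391.8, 301 and 339 CPM in normal pools. The states overlapped: deficient pools averaged 319 ± 37.01 CPM (SD, n = 5) and normal pools 314 ± 44.8 CPM (SD, n = 6), and the standard error of its log2 difference, 0.15 (SE 0.171), was the smallest among the members tested. In the sums NFE2L2 had 52.2, 38.7, 52.6 and 67.9 CPM when deficient, against 63.9, 54.4 and 45.1 CPM when normal. Single oocytes ranged over 16.9 to 87.8 CPM (median 59.3) in deficient oocytes, against 8.19 to 106 CPM (median 49.5) in normal oocytes, and the log2 difference of the sums was -0.28 (SE 0.231, unadjusted p = 0.241, adjusted p = 1.00). KEAP1, the adaptor that hands NRF2 over for degradation, had 0 counts in all 40 libraries. A row at 0 throughout does not tell an absent transcript from a row that reads were not assigned to. Which of these holds for KEAP1, SRXN1 and SOD3 was not tested.

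Of the classic NRF2 targets outside the peroxide pathway, NQO1, a quinone reductase, had a count in 2 pools, both normal, and in 1 normal oocyte. HMOX1, the inducible heme oxygenase, had a count in 1 deficient and 1 normal pool, at no more than 0.589 CPM, and in 2 deficient and 1 normal oocytes. HMOX2, the constitutive heme oxygenase, had 0.838, 0, 1.15, 0.586 and 3.39 CPM in deficient pools, against 2.01, 0.504, 0.258, 1.08, 4.43 and 4.84 CPM in normal pools. Deficient A2 had no count, and the log2 difference was -0.70 (SE 0.918). In single oocytes HMOX2 was counted in all 29, over 13.8 to 33.4 CPM (median 22.9) in deficient oocytes, against 4.89 to 27.1 CPM (median 19.9) in normal oocytes. Its sums had 25.1, 24.99, 18.2 and 23.4 CPM when deficient, against 22.1, 11.9 and 15.8 CPM when normal, with a log2 difference of 0.29 (SE 0.307).

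The sestrins are stress-induced proteins that restrain mTORC1 and aid the repair of peroxiredoxins. SESN1 had 61.8, 30.7, 52.1, 37.5 and 88.9 CPM in deficient pools, against 31.4, 37.4, 59.4, 38.1, 44.4 and 36.7 CPM in normal pools. Deficient B4 was the highest of all pools, the rest overlapped, and the log2 difference was 0.50 (SE 0.262, unadjusted p = 0.0746, adjusted p = 0.921). In the sums SESN1 had 10.1, 11.7, 6.12 and 12.1 CPM when deficient, against 13.2, 9.02 and 10.5 CPM when normal, with a log2 difference of -0.33 (SE 0.381). SESN2 ranged over 0 to 3.48 CPM in deficient pools and 0 to 8.25 CPM in normal pools, with a log2 difference of -0.94 (SE 1.07). The sums of SESN2 had 16.02, 6.45, 11.4 and 7.11 CPM when deficient, against 9.34, 3.38 and 8.46 CPM when normal, with a log2 difference of 0.40 (SE 0.449). SESN3 lay at 0.313 to 2.47 CPM in deficient pools and 0.275 to 4.46 CPM in normal pools, and was counted in 5 deficient and 4 normal oocytes.

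The difference of the state effect between single oocytes and pools was tested directly as an interaction over the 7 sums and 11 pools. None of the 29 members tested was called, as was none of all 17643 genes (0 called, 0%). Of the 29, 19 had passed the expression filter in both tables. None of these 19 had an unadjusted p under 0.05, beside 3.36% of the 10467 genes that passed in both and 5.32% of all 17643 genes. The median of the 19 was -0.06 on the log2 scale, beside 0.02 over the 10467 genes. The other 10 entered the fit without having passed in both, and so through the libraries where they are high. GPX4, TXNRD3 and GSS had passed in the sums alone, GPX1, GPX7, GPX8, PRDX4, PRDX6 and SESN3 in the pools alone, and PRDX5 in neither. No test of these 10 across library types is given.

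Between library types 15 of the 19 members that passed the filter in both tables differed, in both directions, and kit, extraction and number of oocytes cannot be told apart in this difference. Of these 19, 7 were higher in single oocytes than in pools and 8 were lower, beside 33.2% higher and 41.2% lower among the 10467 genes that passed in both tables. Among all 17643 genes tested the shares were 35.3% higher and 31.9% lower. The median log2 difference of the 19 was -0.36 beside -0.18 over the 10467 genes. The split depended on scaling. With size factors of DESeq2's kind used in edgeR (RLE), 9 members were higher and 3 lower, beside 41.9% and 33.3% of the 10467 genes, whose median was then 0.30. With library totals 6 were higher and 9 lower, beside 23.5% and 47.6%, with a median of -0.67. Calls in the same direction under all 3 scalings were made for 6 members higher, beside 23.5% of the 10467 genes, and for 3 lower, beside 33.3%. In CPM, all 7 sums lay above all 11 pools for 2 members, PRDX2 and HMOX2, beside 9.41% of these genes, and below all pools for 5, CAT, TXN, GCLM, NFE2L2 and SESN1, beside 32%.

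Higher in single oocytes under all 3 scalings were HMOX2, TXN2, PRDX2, SESN2, GPX3 and GLRX3. HMOX2 was counted in every single oocyte and averaged 20.2 ± 5.04 CPM in the sums (SD, n = 7), against 1.74 ± 1.71 CPM in pools (SD, n = 11), and its log2 difference was 4.18 (SE 0.529, adjusted p = 1.58e-07). TXN2, with 11.2 ± 5.25 CPM in the sums and 1.83 ± 2.11 CPM in pools, differed by 3.00 (SE 0.536, adjusted p = 2.53e-05) on the log2 scale. PRDX2 had 65.9 ± 19.8 CPM in the sums against 14.3 ± 11.1 CPM in pools, with a log2 difference of 2.89 (SE 0.297, adjusted p = 4.39e-09). The other 3 were SESN2, with a log2 difference of 2.54 (SE 0.69), GPX3, with 2.46 (SE 0.358), and GLRX3, with 1.61 (SE 0.44). SESN2 lost the call among normal libraries alone (adjusted p = 0.102), and GLRX3 among deficient libraries alone (adjusted p = 0.0560).

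Of the members that had not passed in both tables, GPX4, PRDX5 and TXNRD3 had low counts in pools, and their levels are given without a test. GPX4 averaged 2.83 ± 1.52 CPM in the sums (SD, n = 7) and 0.058 ± 0.114 CPM in pools (SD, n = 11). PRDX5 averaged 1.45 ± 1.49 CPM in the sums and 0.0601 ± 0.126 CPM in pools, and TXNRD3 3.56 ± 2.02 CPM in the sums and 0.41 ± 0.433 CPM in pools.

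Lower in single oocytes under all 3 scalings were NFE2L2, GCLM and SESN1. NFE2L2 averaged 53.5 ± 10.1 CPM in the sums (SD, n = 7) and 316 ± 39.5 CPM in pools (SD, n = 11), and differed by -2.07 (SE 0.163, adjusted p = 3.79e-11) on the log2 scale. GCLM averaged 8.82 ± 3.76 CPM in the sums and 56.6 ± 39.2 CPM in pools, a log2 difference of -2.29 (SE 0.397, adjusted p = 1.63e-05). SESN1 averaged 10.4 ± 2.33 CPM in the sums and 47.1 ± 17.4 CPM in pools, a log2 difference of -1.70 (SE 0.247, adjusted p = 1.40e-06).

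For SOD1, CAT, PRDX1, TXN and GCLC the call of a lower level in single oocytes, at log2 differences of -0.59 to -0.99 with TMM, was made with TMM and with library totals but not with RLE in edgeR. For TXN and GCLC the adjusted p with RLE was 0.0518 and 0.0516. In DESeq2 itself TXN and GCLC kept the call, and SOD1, CAT and PRDX1 lost it (adjusted p = 0.569, 0.0792 and 0.699). SOD1, CAT, PRDX1 and GLRX5 also lost the call among deficient libraries alone (adjusted p = 0.643, 0.124, 0.819 and 0.0993), and GLRX5 among normal libraries alone (adjusted p = 0.0677). PRDX1 lost it too when deficient pool B2 (adjusted p = 0.0526) or normal sum 4 (adjusted p = 0.0750) was left out. GLRX5 was called higher with TMM, at 0.99 (SE 0.36), and with RLE in edgeR, but not with library totals. It lost the call without normal sum 2 (adjusted p = 0.0651). SOD2, PRDX3 and TXNRD1 changed sign between scalings, and TXNRD1 had a log2 difference of 0.36 (SE 0.238) with TMM.

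**Figure D4:**
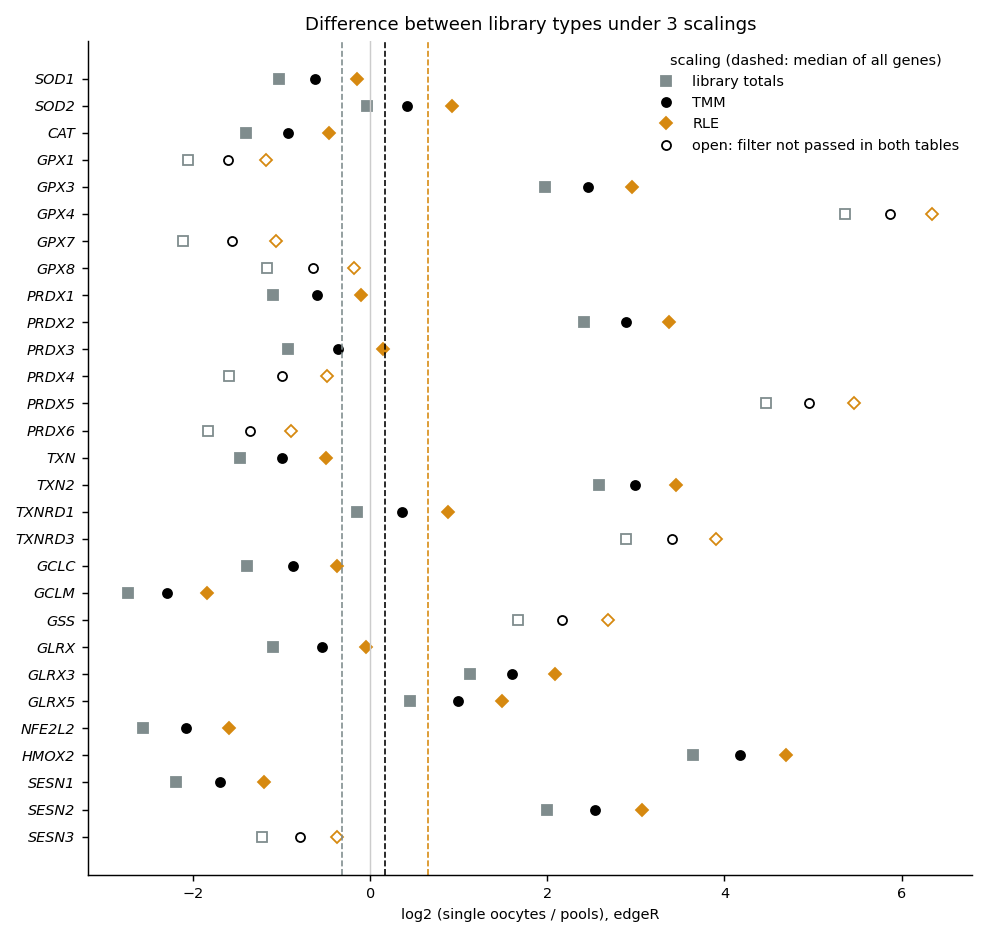
Log2 difference of single-oocyte sums over pools for the 29 members in the fit, all from edgeR, under library totals (squares), TMM (circles) and size factors of DESeq2's kind, marked RLE (diamonds), with dashed lines at the median of all genes, which was -0.32, 0.17 and 0.65. Open symbols mark the 10 members that did not pass the filter in both tables and are not tested here. Of the 19 filled, HMOX2 lies farthest to the right under every scaling, and GCLM and NFE2L2 farthest to the left.

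A row named LOC396625 carries the gene ID that a RefSeq name table of a later genome build pairs with GSR, and was not counted among the 36. It had 9.91, 5.46, 7.81, 10.5 and 15.5 CPM in deficient pools, against 11.8, 7.70, 10.5, 14.05, 12.5 and 15.6 CPM in normal pools. In the sums it had 56.8, 31.8, 41.7 and 60.8 CPM when deficient, against 56.9, 39.4 and 53.7 CPM when normal, all of them above every pool, beside 9.41% of the genes that passed the filter in both tables, and each of the 29 oocytes had a count. Its log2 difference by state was -0.17 (SE 0.284) in pools and -0.28 (SE 0.211) in the sums, neither called. Between library types it was 2.66 (SE 0.186, adjusted p = 4.46e-12).

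A wider list of 80 redox genes (glutathione transferases and transport, NADPH supply, protein disulfide isomerases, iron storage, NRF2 partners and NADPH oxidases), of which 70 had a row, was read from the same fits. In pools 46 were tested, 0 were called and 4 had an unadjusted p under 0.05, beside 5.36% of all genes. These were IDH2, the mitochondrial NADPH-producing isocitrate dehydrogenase, with a log2 difference of -1.56 (SE 0.549, unadjusted p = 0.012), FTL, the ferritin light chain, with -0.63 (SE 0.221, unadjusted p = 0.0121), BACH1, a repressor at NRF2 target sites, with 0.86 (SE 0.316, unadjusted p = 0.0154), and PDIA3, a disulfide isomerase, with 0.49 (SE 0.181, unadjusted p = 0.0167). In the sums 44 were tested, 0 were called and 1 had an unadjusted p under 0.05, beside 1.93% of all genes. That gene was PGD, an enzyme of the pentose phosphate pathway, with a log2 difference of 0.65 (SE 0.282, unadjusted p = 0.0342). PARK7, a redox-sensitive chaperone, had a log2 difference of -0.34 (SE 0.211, unadjusted p = 0.122). The interaction called 0 of the 57 in its fit, which include genes that had not passed the filter in both tables.

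Between library types, the 57 wider genes in the fit include some that passed the filter in 1 table or in neither. These entered through the libraries where they are high, so no count of calls or median is given for the list. The genes named below passed the filter in both tables. PARK7 had 54.2 ± 13.6 CPM in the sums (SD, n = 7) and 2.49 ± 1.43 CPM in pools (SD, n = 11), and differed by 4.98 (SE 0.309, adjusted p = 5.47e-13) on the log2 scale. SQSTM1, whose protein competes with NRF2 for KEAP1, had a log2 difference of 4.42 (SE 0.373, adjusted p = 1.35e-10). On the lower side were CUL3, the ubiquitin ligase scaffold that KEAP1 serves, with a log2 difference of -3.35 (SE 0.229, adjusted p = 3.09e-12), GSTCD, a protein with a glutathione transferase domain, with -2.65 (SE 0.338, adjusted p = 1.74e-07), and NOX4, an NADPH oxidase, with -2.20 (SE 0.259, adjusted p = 4.62e-08).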

How the data were processed

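The authors deposited 2 tables of whole-number counts per gene, not normalized, for 11 pools and 29 single oocytes. The submitters' processing notes name Sscrofa10.2 as the build and edgeR, TopHat2 2.0.14, Trim Galore and FastQC as tools. Which program counted reads, and with which strand setting, is not given in the sources used here, so reads of overlapping antisense genes and near-identical copies cannot be told apart. Of the rows of either table, 1 names no gene (1.05% to 4.75% of a pool's counts, 0.648% to 8.15% of an oocyte's) and was left out.

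The members and lists were chosen with earlier results of these data known. Every member with a row is named. Library values are given for members averaging at least 10 CPM in pools or sums and for those of smallest p in a state comparison or the interaction. CPM were computed from the deposited counts over library totals.

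All genes were tested in R 4.3.3 with edgeR 4.0.16 (quasi-likelihood, default expression filter, TMM, Benjamini-Hochberg adjustment, threshold 0.05). Each state comparison was fitted in its own table. Library type, with state as covariate, and the interaction were fitted over 11 pools and 7 sums, and members are tested there only where they passed the filter in both tables. DESeq2 1.42.0, limma-voom (limma 3.58.1), other scalings and filters, title letter, genes detected (added after the data were seen), each oocyte as a sample, dates and leaving out each library were alternatives. The scripts were tested on simulated counts. The series text states 5 pools a group, and 6 normal pools were in the table. No label ties replicates to separate animals. The p-values therefore reflect no more than sample-to-sample spread, which may be technical. No 2 libraries agreed within sampling noise. Sums of the same number deviated together across states, but weakly (correlations of 0.143, 0.220 and 0.165). Both number 2 sums hold only oocytes of 22 September and both number 3 sums only those of 17 September. Number and date cannot be told apart there, and where the numbers come from is not stated. The numbers are taken as a possible pairing only. Differences of members between sums are from the fit without a block, and the block is an alternative. Pools of the same title correlated at -0.105 (A2), 0.127 (A3), 0.476 (B2) and 0.0781 (B4), not above 0.1 in every pair, so their titles are not taken to pair them. Intervals and floors cover counting error only. No member's sequence or transcript length is used here. Some genes of the wider redox list that the naming rule picks are not reported here.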

Additional observations from a re-analysis of the deposited data

Results flagged for a closer look

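For 57 groups of values, the highest and lowest sample were compared with the nearest of the others by Dixon's ratio, and 7 were far apart. Chance gives about 1 in 20 only where values are normally distributed. CPM are skewed and often 0, so the number flagged is not read as an excess. GPX3 reached 16.6 CPM in deficient pool B2, against 5.91 CPM in the next deficient pool. GPX7 reached 3.02 CPM in normal pool A4, against 0.735 CPM in the next. GPX7 was also counted in 1 of the 4 deficient sums only, number 4, at 0.123 CPM, which is 1 count. PRDX5 reached 0.429 CPM (7 counts) in normal pool B4, against 0.0727 CPM in the next. TXN2 reached 6.15 CPM in deficient pool A2, against 1.49 CPM in the next, and 5.93 CPM in normal pool B2, against 1.53 CPM in the next. GCLC was lowest in normal pool A3, at 84.7 CPM, against 202 CPM in the next lowest, and that pool had the fewest genes detected of the normal pools (15057). What sets these libraries apart was not tested.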

How the results depend on the processing

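Of 972 recomputed values, 928 kept their direction and side of the threshold or moved by less than the spread, 24 lost a call, 2 changed sign and 18 counts or levels moved. Among single members these cover only those called between library types and those of smallest p in the other comparisons. Members outside these changed sign too. In pools, genes detected as a covariate took SESN2 from -0.94 to 0.66 and HMOX2 from -0.70 to 0.24. No setting tried called a member between states or in the interaction. Among the 972 values the sign changed for GCLM in single oocytes (-0.079 with the oocytes of 17 September alone) and for PRDX1 between library types (0.016 at 10 CPM or more in 3 libraries). That filter left 6763 genes called between library types, 11 members and 29 wider genes. Of these members 8 were higher in single oocytes and 3 lower. The filter tests fewer genes, but some members still tested also lost their calls as their log2 differences moved. These went from -0.63 to -0.002 for SOD1, from -0.59 to 0.016 for PRDX1 and from -0.93 to -0.31 for CAT. For GCLC the move was from -0.87 to -0.25, and for TXN from -0.99 to -0.37. The cause of these moves and of the other changes was not tested. DESeq2 called 28 genes in pools, where edgeR called 0. Between single-oocyte states, genes called were 1 with library totals, 4 with no filter, 2 with DESeq2, 1 with each oocyte as a sample (also with date as a covariate) and 2 on 17 September. In the interaction they were 6 with no filter, 1 with DESeq2 and 3 with each oocyte as a sample. The replicate block over sums of shared number called 2 genes, no member among them, where the fit without a block called 0. The replicate block over pools of shared title changed no call: it gave 0 genes. Under it GPX3 had a log2 difference of -1.44 (SE 0.458, unadjusted p = 0.00990, adjusted p = 0.694), though these titles are not shown to pair the pools. The summed level was 980 CPM in normal pools and 646 CPM in normal sums with TMM. Deficient levels with TMM are not printed here, so these values do not compare the states. Without LOC102158401 and RN18S the summed level was 1567 CPM in deficient sums and 1529 CPM in normal sums. With 1 library left out, 11305 to 11892 genes were called between library types, and 0 between states. Counts of members and wider genes called between library types are not given, since they take in genes that did not pass the filter in both tables. In pools, GCLM ranged over log2 differences of 0.01 to 1.57 across settings, PRDX1 over -0.96 to -0.42 and PRDX2 over -1.25 to -0.45. Depth limits genes of few counts: 3 counts stand for 0.978 to 4.24 CPM in an oocyte.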
